A study of Mus musculus with 6 samples.

Results

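The proteasome subunit genes are described here across pancreatic islets of mice with and without Ucn3, the gene of urocortin 3, a peptide that mature beta cells release with insulin. Members were the gene symbols that start with Psma, Psmb, Psmc or Psmd followed by a number. Psmb8, Psmb9 and Psmb10, the interferon-inducible catalytic subunits, were left out of the set and are given separately. A symbol with several transcripts is represented by its most abundant one on average. The rule found 36 genes among 21813 symbols with values, and 34 of them were among the 12652 genes that averaged at least 1 RPKM and were tested. RPKM counts the reads on a transcript per unit of its length and per unit of sequencing depth. Islets came from 3 Ucn3 null males and 3 wild-type male littermates, all adults of 3 months, with 1 library per animal. The labels name no strain, no details of the allele, no other allele and no treatment. They call the cell type mixed, although the extraction text mentions a sort. In such bulk samples, fewer cells of a type and less RNA per cell cannot be told apart.

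The proteasome is the barrel-shaped protease that degrades proteins tagged with ubiquitin. Its core particle is a stack of rings: alpha subunits (Psma genes) form the outer rings and the gate, and beta subunits (Psmb genes) form the inner rings with the proteolytic sites. A regulatory particle caps the core, with a ring of ATPases (Psmc genes) that unfold substrates. The Psmd genes encode its other subunits, some of which bind or remove ubiquitin, and some chaperones of its assembly. Beta cells make large amounts of secretory protein, and misfolded proinsulin is among the substrates that islet proteasomes clear. Subunit genes are scattered over the genome, here over 16 chromosomes in RefSeq, and in mammals are known to be raised together by the transcription factor NFE2L1 through antioxidant response elements.

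All 6 libraries matched their labels for the targeted gene, with Ucn3 at 136 to 157 RPKM in wild-type and 1.61 to 1.80 RPKM in null libraries. The islet hormones defined the tissue in each library, with Ins2 between 184445 and 232411 RPKM and Gcg between 5836 and 10055 RPKM. Depth, estimated from the steps between low values, lay between 42550000 and 51900000 reads. Tested members then rested on about 259 to 7016 reads per library. Their median counting error of 2.48% was smaller than their median coefficient of variation between animals, 7.60% in wild-type and 5.82% in null islets. Libraries stood apart in acinar markers, genes of the digestive tissue around islets. The 24 markers summed to between 665 and 28891 RPKM, and those values are given beside the results they moved with.

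Promoter sequence upstream of 5 members is shown because the subunit genes share a known regulator. A link between these sequences and the differences was not tested. The 5 are the catalytic subunit gene Psmb5 and, for each of the 4 kinds of subunit, the member of smallest p with a single window in the RefSeq promoter table (build GRCm38.p6). Each run gives the 150 bases before the annotated start, 5′ to 3′ on the gene's strand. Capitals mark matches to TGACNNNGC (the core of the antioxidant response element), CCAAT or CCGGAAG (ETS factors), or to the longer NRF1 and YY1 motifs, searched on both strands.
Psma2 (chr13:14613092-14613241, plus strand): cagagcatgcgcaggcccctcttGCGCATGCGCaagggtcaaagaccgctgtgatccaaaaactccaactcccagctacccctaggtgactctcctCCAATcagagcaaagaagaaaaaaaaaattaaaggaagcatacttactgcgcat
Psmb6 (chr11:70525207-70525356, plus strand): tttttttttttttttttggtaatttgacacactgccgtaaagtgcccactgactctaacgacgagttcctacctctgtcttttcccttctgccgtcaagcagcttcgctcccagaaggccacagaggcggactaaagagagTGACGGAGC
Psmb5 (chr14:54617996-54618145, minus strand): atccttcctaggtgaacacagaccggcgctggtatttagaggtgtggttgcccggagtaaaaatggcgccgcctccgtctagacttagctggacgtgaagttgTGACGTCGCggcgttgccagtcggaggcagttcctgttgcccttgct
Psmc6 (chr14:45329674-45329823, plus strand): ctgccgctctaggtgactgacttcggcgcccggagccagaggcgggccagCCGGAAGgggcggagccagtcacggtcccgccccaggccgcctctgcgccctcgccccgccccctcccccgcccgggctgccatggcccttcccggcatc
Psmd5 (chr2:34870963-34871112, minus strand): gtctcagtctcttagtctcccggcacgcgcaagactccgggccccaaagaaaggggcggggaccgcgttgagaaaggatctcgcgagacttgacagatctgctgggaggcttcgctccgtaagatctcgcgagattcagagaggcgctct
The stretch of Psmd5 held none of the 5 motifs. In the full windows, which run from 250 bases before to 50 bases after the start, ETS letters stood in 10 of the 29 members with a window (34.5%) and in 9.93% of all 27025 symbols. The response element core stood in 5 members, Psmb5, Psmb6, Psmc6, Psmd9 and Psmd12 (17.2%), against 13.99% of all symbols. CCAAT was found in 12 members (41.4%) and in 41.1% of all symbols. The NRF1 motif was found in Psma2 and the YY1 motif in Psmb6, each 1 of 29 (3.45%), against 1.07% and 0.995% of all symbols. The ETS and CCAAT letters shared a base in Psma6 and in Psmc2. A match is a description of the letters and not a binding site.

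No subunit gene passed an adjusted p of 0.05 between null and wild-type islets (limma on log2(RPKM + 1), Benjamini-Hochberg over all genes tested). Over all genes 2 passed as lower, a background of 0.0158%. The adjusted p of the 34 members ran from 0.49 to 0.99. At an unadjusted p under 0.05 limma counted 7 members, all of them lower in null islets, where 7.9% of all tested genes were lower and 1.46% higher by that measure. Every one of the 34 differences was below 0, and so were 61.7% of all tested genes. The median difference was -0.15 on the log2 scale, against -0.03 over all genes tested, and single members ranged from -0.29 for Psma2 to -0.01 for Psmd9. The acinar markers were higher on average in null islets, and with their mean as a term in the model the median was -0.02 for the members and -0.02 for all genes, with 21 of 34 members below 0. Without the acinar term, the members' change in mean RPKM had a median of -10.4%, from -19.1% to -0.484%. For 12 members each null library lay below each wild-type library, and 13.2% of all tested genes did so. No member had all null libraries above all wild-type libraries, as 1.9% of all tested genes had. Without wild type replicate 1 the members without overlap numbered 27, against 23.6% of all genes, and 33 of 34 were below 0, against 58.3%. Without null replicate 3 they numbered 25, against 26.2% of all genes, and 34 of 34 were below 0, against 72.2%. Wild type replicate 1 had the highest acinar sum of the wild-type libraries, 7875 RPKM. Null replicate 3 had the lowest of the null libraries, 5950 RPKM. When wild type replicate 2 was left out instead, the members' median was -0.103, against -0.05 over all genes. Leaving out any 1 library gave members' medians between -0.195 and -0.103.

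**Figure D1:**
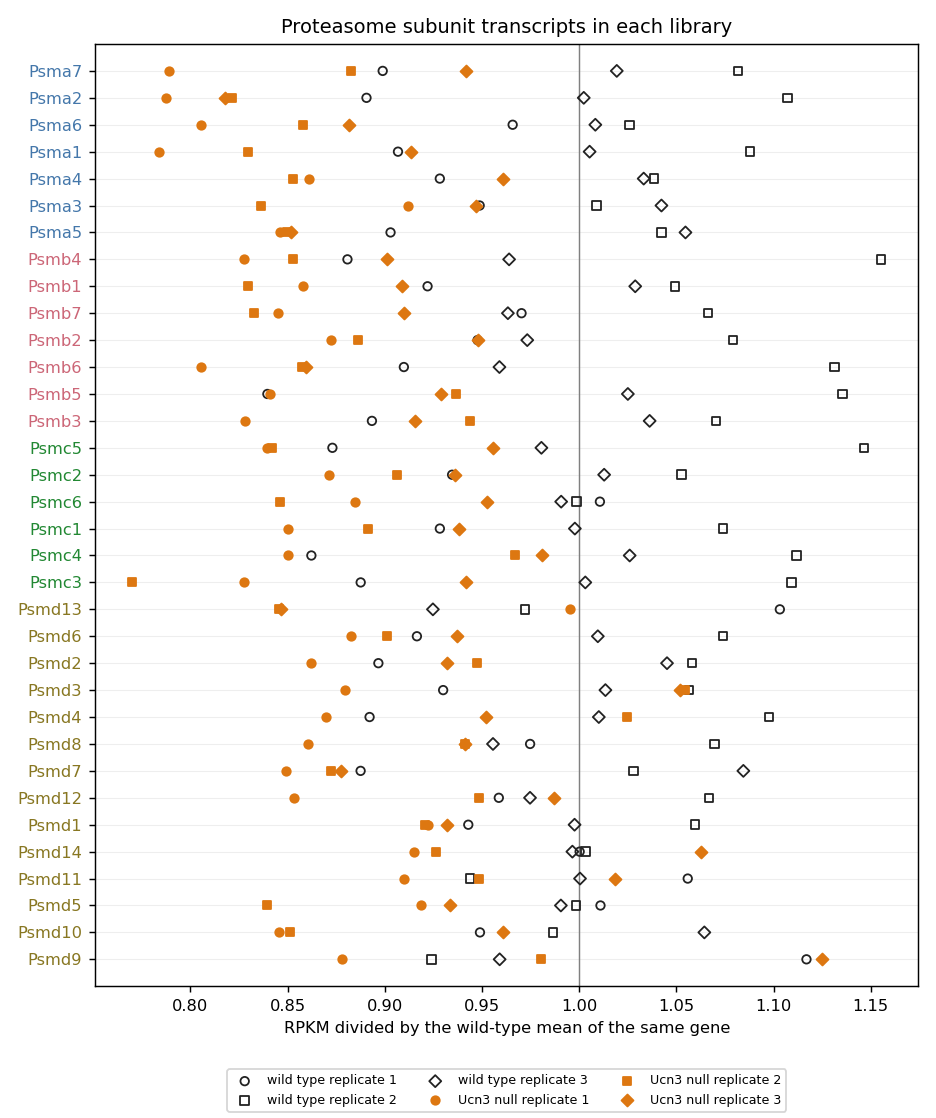
RPKM of each of the 34 tested subunit genes divided by its own wild-type mean (horizontal axis, no unit), 1 row per gene, with open symbols for the 3 wild-type and filled symbols for the 3 null libraries; gene names are blue for the alpha ring, red for the beta ring, green for the ATPases and olive for the other regulatory subunits. Wild type replicate 2 was the highest library for 24 genes and Ucn3 null replicate 1 the lowest for 24.

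**Figure D2:**
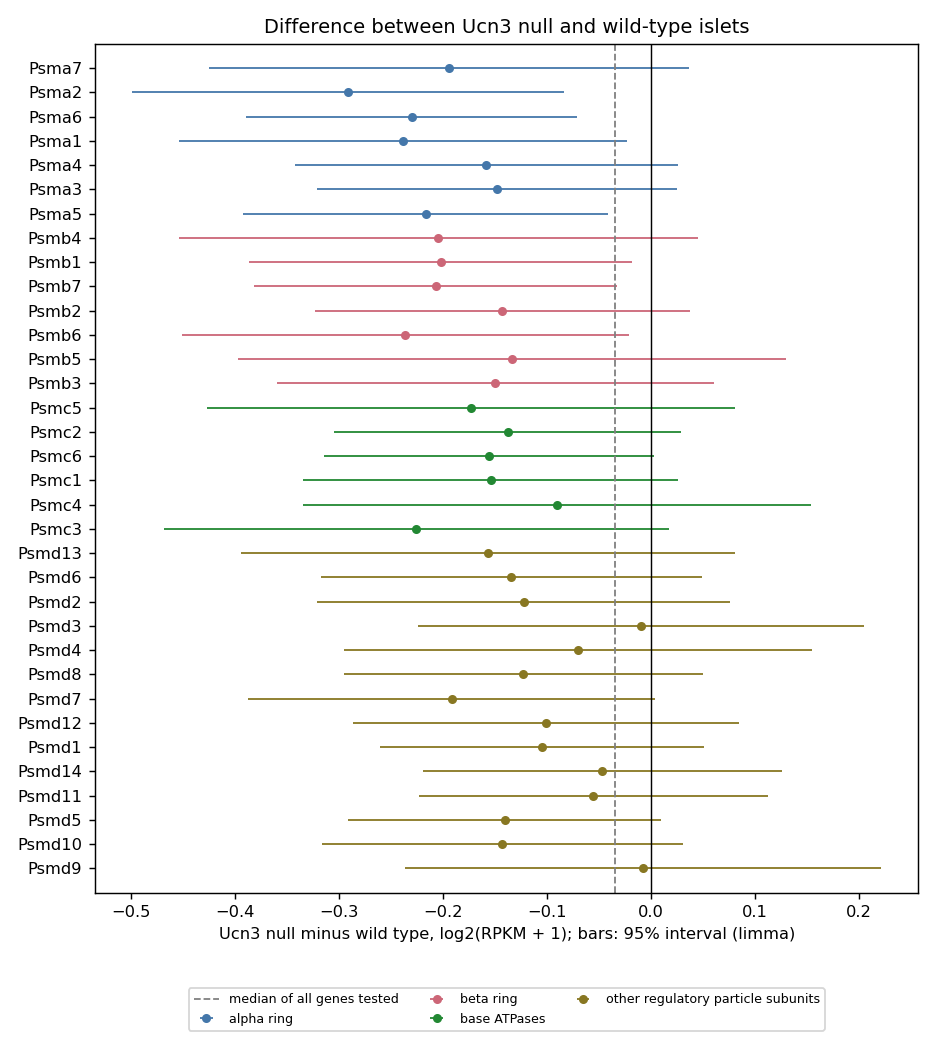
Difference between null and wild-type islets for each tested subunit gene on the log2(RPKM + 1) scale, with 95% limma intervals and the median of all tested genes as a dashed line. All 34 points lie left of 0, and the intervals of 7 genes, all of them core particle subunits, end below 0 without adjustment for the number of genes.

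Alpha ring subunits had the most negative median of the 4 kinds, -0.22 over 7 tested genes. Of the 7, 4 were lower without overlap between groups, beside 13.2% of all tested genes. Psma7 was the most abundant alpha transcript, at 41.0, 49.4 and 46.5 RPKM in wild type and at 36.0, 40.3 and 43.0 RPKM in null islets. Its groups overlapped, since null replicate 3 lay above wild type replicate 1. Psma2 had the largest difference of all members. It stood at 30.3, 37.7 and 34.1 RPKM in wild type and at 26.8, 27.9 and 27.8 RPKM in null libraries. The null values lay close together and under all wild-type values, with means of 34.02 ± 3.68 and 27.5 ± 0.63 RPKM (SD, n = 3 each; log2 difference -0.29, SE 0.09, limma adjusted p = 0.49). Psma6 had the smallest p of the members. Its wild-type libraries held 31.8, 33.8 and 33.2 RPKM and its null libraries 26.5, 28.2 and 29.0 RPKM, again without overlap (log2 difference -0.23, SE 0.07, limma adjusted p = 0.49). Psma5 stood at 13.5, 15.6 and 15.8 RPKM in wild type and at 12.7, 12.7 and 12.8 RPKM in null islets, where the 3 animals differed by less than the wild-type animals did. Psma3 was at 20.6, 21.9 and 22.7 RPKM against 19.8, 18.2 and 20.6 RPKM. Its groups only just separated: the lowest wild-type value was 20.64 RPKM and the highest null value 20.59 RPKM. Psma1 and Psma4 had differences of -0.24 and -0.16 and overlapped between groups. Psma8, the alpha subunit of spermatogenic cells, stayed between 0.025 and 0.073 RPKM in all libraries, or about 2 to 6 reads, and was not tested.

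Beta ring subunits followed with a median of -0.20 over 7 tested genes, 3 of them lower without overlap, beside 13.2% of all tested genes. Psmb5 carries the chymotrypsin-like site. It was at 21.9, 29.6 and 26.7 RPKM in wild type and 21.9, 24.4 and 24.2 RPKM in null islets, so the lowest library of each group had nearly the same value. Its difference was -0.13 with a 95% interval from -0.40 to 0.13. Psmb6, with the caspase-like site, was at 27.6, 34.3 and 29.1 RPKM in wild type and at 24.4, 26.0 and 26.0 RPKM in null libraries, with no overlap (log2 difference -0.24, SE 0.09, limma adjusted p = 0.50). Psmb7, with the trypsin-like site, was at 38.1, 41.9 and 37.8 RPKM against 33.2, 32.7 and 35.7 RPKM, also without overlap (log2 difference -0.21, SE 0.07, limma adjusted p = 0.49). The catalytic genes thus gave intervals that overlap each other, and a difference between them was not tested. Psmb4, a beta subunit without a catalytic site, had the highest mean of the ring. Its wild-type values were 48.7, 63.9 and 53.3 RPKM and its null values 45.8, 47.1 and 49.8 RPKM, which overlapped. Psmb1, also without a catalytic site, was at 40.1, 45.6 and 44.7 RPKM in wild type and 37.3, 36.1 and 39.5 RPKM in null islets. Its groups did not overlap (log2 difference -0.20, SE 0.08, limma adjusted p = 0.51). Psmb2 and Psmb3 differed by -0.14 and -0.15 and overlapped. Psmb11, the catalytic subunit of the thymus, was at 0 in 2 libraries and at most 0.025 RPKM in the others, about 5 reads, and was not tested.

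The ATPases of the base had a median of -0.15 over 6 genes. Of the 6, 1 was lower without overlap, beside 13.2% of all tested genes. That ATPase gene was Psmc6, at 23.0, 22.7 and 22.5 RPKM in wild type and 20.1, 19.2 and 21.7 RPKM in null islets (log2 difference -0.16, SE 0.07, limma adjusted p = 0.53). For this gene the wild-type animals were close together, with an SD of 0.228 RPKM (n = 3). Psmc3 had the lowest mean level of the ATPases. It was at 15.7, 19.6 and 17.8 RPKM against 14.6, 13.6 and 16.7 RPKM, with overlapping groups and a difference of -0.23. Psmc5 had the highest, at 24.9, 32.7 and 28.0 RPKM in wild type and 23.95, 24.03 and 27.27 RPKM in null islets. The difference of Psmc5 was -0.17, with a 95% interval from -0.43 to 0.08. It was -0.07 without wild type replicate 2 and -0.26 without wild type replicate 1. Psmc1, Psmc2 and Psmc4 lay between -0.15 and -0.09. Mean levels of the 6 ATPases, whose proteins form 1 ring, ranged from 16.3 to 26.8 RPKM.

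The other regulatory subunits had the median nearest 0, -0.11 over 14 genes. Of the 14, 4 were lower without overlap, beside 13.2% of all tested genes. Psmd7, the partner of the deubiquitinase Psmd14 in the lid, was at 17.5, 20.3 and 21.4 RPKM in wild type and 16.8, 17.2 and 17.3 RPKM in null islets (log2 difference -0.19, SE 0.08, limma adjusted p = 0.53). The null animals lay just under the lowest wild-type animal. Psmd5, a chaperone of base assembly, was at 8.703, 8.596 and 8.528 RPKM against 7.91, 7.23 and 8.04 RPKM. Psmd8, a lid subunit, was at 20.5, 22.5 and 20.1 RPKM against 18.1, 19.8 and 19.8 RPKM. Psmd1, a large scaffold of the base, was at 17.4, 19.6 and 18.4 RPKM against 17.03, 16.998 and 17.21 RPKM. Psmd8 and Psmd1 separated by narrow margins. The differences of Psmd5, Psmd8 and Psmd1 were -0.14, -0.12 and -0.11.

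Psmd14 itself, which cuts ubiquitin chains off substrates, was at 14.6, 14.7 and 14.6 RPKM in wild type and at 13.4, 13.6 and 15.6 RPKM in null islets. Null replicate 3 was above and the other null libraries were below the narrow wild-type range, and the 95% interval of the difference ran from -0.22 to 0.13. Psmd13, a lid subunit, had the highest level of all members, at 75.3, 66.4 and 63.2 RPKM in wild type and 68.0, 57.7 and 57.8 RPKM in null islets. Its order differed from most members, with wild type replicate 1 highest. Psmd13 shares exon sequence with Sirt3 on the opposite strand in GENCODE M21. No source used here says that strand was kept in counting, so reads on the shared sequence cannot be told apart. Psmd9, another chaperone of base assembly, had the lowest mean level of the tested members. It was at 4.73, 3.91 and 4.06 RPKM against 3.72, 4.15 and 4.76 RPKM, and the groups overlapped almost fully. Its exons overlap a long noncoding RNA on the opposite strand. Psmd3 and Psmd9 each had a difference of -0.01 with intervals that reach 0.20 and 0.22. The ubiquitin receptor Psmd4, and Psmd2, Psmd6, Psmd10, Psmd11 and Psmd12, had differences between -0.14 and -0.06 and overlapped between groups.

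Taking the core particle and the regulatory particle apart, the 14 core genes had a median of -0.20 and the 20 regulatory genes a median of -0.13. The 7 genes with an unadjusted limma p under 0.05 were all core genes, where 7.9% of all tested genes were lower by that measure. With the acinar term, 1 of the 34 members had such a p. In each library, the mean log2(RPKM + 1) of the core genes exceeded that of the regulatory genes. Wild-type libraries had an excess of 0.68, 0.79 and 0.75, and each null library had an excess of 0.66. The null libraries were therefore all lower, with wild type replicate 1 nearest to them. The 2 libraries with the lowest acinar sums, wild type replicates 2 and 3, also had the largest excess. The order did not hold throughout. Null replicate 3, with an acinar sum of 5950 RPKM, had an excess of 0.657. Wild type replicate 1, with the higher sum of 7875 RPKM, had the larger excess of 0.680. With the acinar term the core genes had a median of -0.04 and the regulatory genes a median of -0.01. This was a description chosen after the values were seen, with no test.

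Of the 39 other genes of the pathway, 38 were tested and 0 passed in limma. At an unadjusted p under 0.05, 8 of them were lower and 0 higher, beside 7.9% and 1.46% of all tested genes. Of the 38 differences, 32 were below 0 with a median of -0.05, beside 61.7% and -0.03 for all tested genes. The direction of these lists depended on scaling, as did that of all tested genes. With equal totals after the acinar markers were left out, 16 of 38 were below 0, against 39% of all genes. The median was then 0.02, against 0.03. With the acinar term 19 of 38 were below 0, with a median of -0.001, against 56% and -0.02 for all genes. Pomp, the maturation factor of the core particle, was at 34.1, 42.2 and 38.3 RPKM in wild type and at 30.7, 30.9 and 33.0 RPKM in null islets (log2 difference -0.26, SE 0.09, limma adjusted p = 0.49). Psmg4, a subunit of a chaperone of alpha ring assembly, was at 9.90, 10.3 and 8.65 RPKM against 8.45, 7.99 and 7.76 RPKM. Both were separate between groups, as was 1 other of the 5 tested assembly chaperones, where 13.2% of all tested genes were lower without overlap. With the acinar term the difference of Pomp was -0.08 and that of Psmg4 -0.22. Shfm1, also named Sem1, is a small subunit of the lid outside the naming rule. It was at 62.0, 61.9 and 61.7 RPKM in wild type and 52.2, 47.5 and 51.5 RPKM in null islets. This was the smallest p of the pathway lists (log2 difference -0.29, SE 0.07, limma adjusted p = 0.49), and its difference was -0.29 with the acinar term too. Txnl1, a thioredoxin bound to the regulatory particle, had a difference of -0.19. It was the other of the 12 receptors, deubiquitinases and cofactors whose groups did not overlap, beside 13.2% of all tested genes. The median of those 12 was -0.03.

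Psme1 and Psme2 encode an interferon-inducible activator that can replace the regulatory particle. Psme1 was at 18.5, 20.4 and 19.2 RPKM in wild type and 16.1, 15.3 and 17.2 RPKM in null islets, and Psme2 differed by -0.22 with overlapping groups. With the acinar term these differences were -0.13 for Psme1 and -0.02 for Psme2. The other activators Psme3 and Psme4 and the inhibitor Psmf1 had differences between -0.02 and 0.02. In the list of the NFE2L1 route, whose median was -0.05, no gene had an unadjusted p under 0.05. Ddi2, the protease that activates NFE2L1, was at 8.75, 6.59 and 8.44 RPKM in wild type and 8.604, 8.752 and 9.420 RPKM in null islets. Nfe2l2, a related factor, was at 14.9, 12.9 and 11.3 RPKM against 12.1, 11.7 and 11.3 RPKM. Both overlapped between groups, with differences of 0.16 and -0.14. Ddi2 was at 0.05 without wild type replicate 2 and at 0.01 with the acinar term, and Nfe2l2 at -0.04 without wild type replicate 1 and -0.23 without wild type replicate 3. Of the ubiquitin genes, Rps27a, which encodes ubiquitin fused to a ribosomal protein, differed by -0.25 and did not overlap between groups. It has processed copies in the genome, so its reads may be shared.

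The immunoproteasome replaces each catalytic beta subunit by an interferon-inducible counterpart. Psmb8, the counterpart of Psmb5, was at 5.82, 6.41 and 5.39 RPKM in wild type and 4.005, 5.568 and 4.839 RPKM in null islets. Psmb9, the counterpart of Psmb6, was at 7.22, 6.47 and 6.79 RPKM against 5.21, 5.96 and 5.63 RPKM, without overlap (log2 difference -0.25, SE 0.07, limma adjusted p = 0.49). Psmb10, the counterpart of Psmb7, was at 5.83, 6.01 and 5.65 RPKM against 6.28, 5.83 and 5.23 RPKM. The standard subunits were therefore the higher transcripts of each pair in every library. Psmb8 reached 22.8% ± 3.37 of Psmb5 in wild type and 20.4% ± 2.29 in null islets, and Psmb9 reached 22.8% ± 3.70 and 21.97% ± 0.857 of Psmb6 (SD, n = 3 each). Psmb10 reached 14.9% ± 0.477 and 17.1% ± 2.23 of Psmb7 (SD, n = 3 each). Over these 3 ratios the exact two-sided permutation p was 0.4, 0.7 and 0.3 for Psmb8, Psmb9 and Psmb10, and the Benjamini-Hochberg values were 0.6, 0.7 and 0.6. The smallest p that 3 animals against 3 allow is 0.1. Macrophage markers, another source of immunoproteasome transcripts, summed to 24.9 to 60.8 RPKM in wild type and 19.3 to 35.1 RPKM in null islets, with 6 of 7 lower on average, and their part in these values was not tested.

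**Figure D3:**
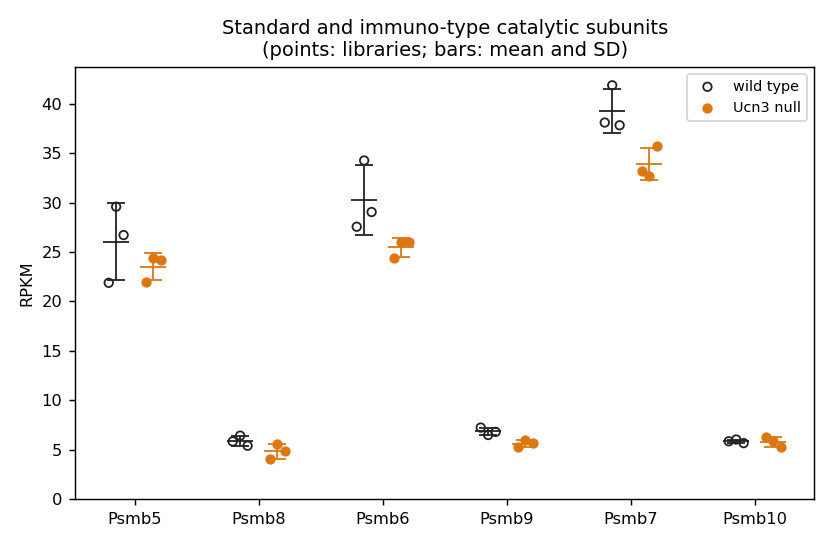
RPKM of the standard catalytic genes Psmb5, Psmb6 and Psmb7, each followed by its immunoproteasome counterpart, with 1 point per library and the mean and SD of each group. The standard genes lie between 21.9 and 41.9 RPKM and the counterparts between 4.005 and 7.22 RPKM.

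The level of the members in single libraries ran in the reverse order of the acinar markers. The mean log2(RPKM + 1) of the 34 members was 4.644 in wild type replicate 2, 4.574 in wild type replicate 3, 4.480 in null replicate 3, 4.479 in wild type replicate 1, 4.408 in null replicate 2 and 4.361 in null replicate 1. The acinar sums in that order were 665, 3064, 5950, 7875, 16768 and 28891 RPKM. All 24 acinar markers were higher on average in null islets, and none was at 0 in all libraries. The groups overlapped in the acinar sum, at 665 to 7875 RPKM in wild type and 5950 to 28891 RPKM in null islets. These 24 markers made up between 0.069% and 3.40% of all summed RPKM. Null replicate 1, with the highest acinar sum, had members at a median of 14.5% below the wild-type mean. In the fit with the mean of the acinar markers as an added term, where 21 of 34 members were below 0, 56% of all tested genes were below 0. Psmd13 then had a difference of -0.31, further from 0 than without the term, while Psma2 had -0.12 and Psma6 -0.15. Without wild type replicate 2 and null replicate 1, which hold the lowest and the highest acinar sum, the median difference was -0.07, with 28 of 34 below 0, against 58.7% of all genes. Then 13 members were lower without overlap, against 23.1% of all genes, and 1, Psmd3, was higher without overlap, against 13.4%. All 10 ductal markers were lower on average in null islets, at 295 to 392 RPKM in sum in wild type and 241 to 298 RPKM in null islets. The 4 delta cell markers summed to 1748 to 2406 RPKM in wild type and 683 to 1084 RPKM in null islets, and beta cell markers to 247272 to 285904 RPKM and 230670 to 255247 RPKM. Of the 10 beta cell markers, 5 were higher and 5 lower on average in null islets. Since all 24 acinar markers were higher on average in null islets, the acinar term and genotype moved together over the 6 libraries. The fit with that term therefore cannot fully tell them apart. The part of these cell types in the members' values was not tested.

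**Figure D4:**
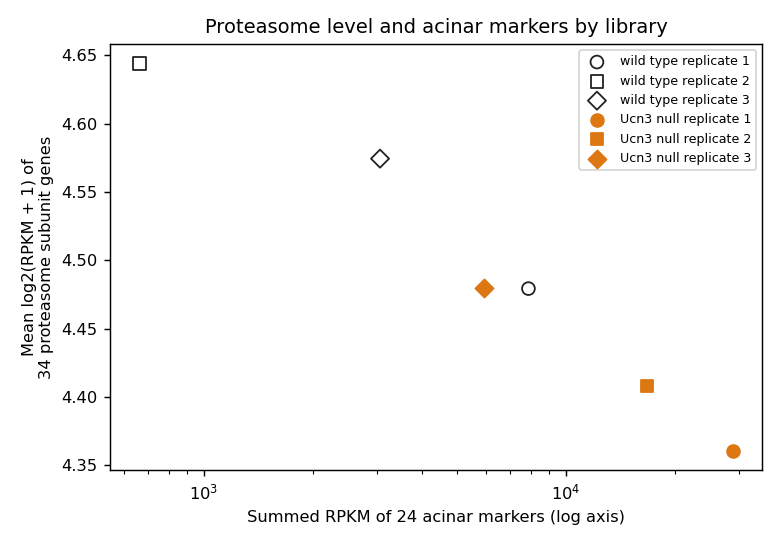
Mean log2(RPKM + 1) of the 34 tested subunit genes against the summed RPKM of 24 acinar markers (log axis), 1 symbol per library. The libraries step down from 4.644 at 665 RPKM to 4.361 at 28891 RPKM, and wild type replicate 1 and Ucn3 null replicate 3 lie side by side.

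Transcript length also moved with the difference. Over all tested genes with a known length, the median difference was -0.11 in the shortest class (49 to 1398 bases, 2489 genes). It was -0.06, -0.03 and -0.01 in the next 3 classes and 0.01 in the longest class (from 4567 bases). The members' transcripts had a median length of 1526.5 bases, against 2682 bases for all tested genes, and 15 of the 34 were in the shortest class. In that class the members had a median of -0.17, in the second -0.15 (12 members) and in the third -0.11 (6 members). Members were thus further below 0 than the median of all genes in each of these classes. After each library was corrected for length, the median was -0.08 with 30 of 34 below 0, against 47.8% of all genes. Of the members, 6 then did not overlap, where 7.47% of all genes were lower without overlap. The core genes then had a median of -0.11 and the regulatory genes -0.06. The part of length in the members' values was not tested beyond this correction.

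**Figure D5:**
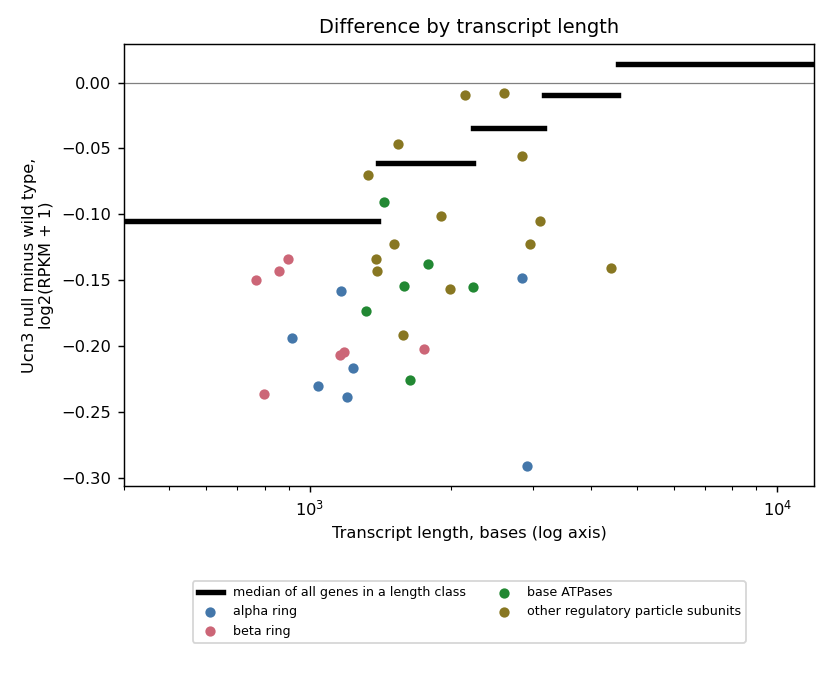
Difference between null and wild-type islets on the log2(RPKM + 1) scale against transcript length (log axis), with 1 point per tested subunit gene and black bars for the median of all tested genes in 5 length classes; the first and last bars are cut at the axis limits. The bars run from -0.11 in the shortest to 0.01 in the longest class, and most members lie below the bar of their class.

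Scaling of the libraries moved the members and the other genes alike. With median-ratio scaling the median over all genes was 0.01 and that of the members -0.10. There 32 of 34 members were below 0, against 47.9% of all genes, and 8 did not overlap, where 8.13% of all genes were lower without overlap. With equal totals after the acinar markers were left out, the members' median was -0.08 against 0.03 over all genes, and 29 of 34 were below 0, against 39% of all genes. Of the members, 6 then did not overlap, against 5.58% of all genes. Upper-quartile scaling gave 32 of 34 below 0, against 51.5%, and 10 without overlap, against 9.94%. Among the genes that the naming rule below selects, Psmd9, Psmd14 and Psmb10 had signs that differed between scalings. Members outside that rule enter only the counts below 0, so their signs by scaling are not listed.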

How the data were processed

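RNA of isolated islets from 6 animals was sequenced from libraries of the TruSeq kit, per the labels' protocols. Expression was deposited as RPKM per RefSeq transcript, computed by the authors. Per the submitters' processing notes STAR, bedtools and DESeq were used with the build mm9; roles and versions are not given in the sources used here. Of 28129 rows, 117 were blank and 1 held text; 28011 were used. Values were transformed to log2(RPKM + 1) with a filter at a mean of 1 RPKM and tested in limma 3.58.1 (R 4.3.3) with genotype alone in the model, eBayes with a mean trend, and a Benjamini-Hochberg threshold of 0.05. Differences are null minus wild type and understate the change of low genes. The fit was tested on simulated data. No label ties animals across genotypes, so no block was used, and replicates are numbered by accession.

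Reads were estimated from RPKM and GENCODE M21 lengths, with 74.6% to 75.8% of low values whole within 0.1 read. Intervals cover the spread between these animals only. Reads of members may be shared with pseudogenes: RefSeq names 6, of Psma5, Psmb5, Psmb6 and Psmb7. In GENCODE M21, 9 of the 36 members share exon sequence with another gene. They are Psma4, Psma5, Psmb5, Psmb7, Psmc3, Psmd1, Psmd3, Psmd9 and Psmd13, and the limit given for Psmd13 holds for each. Among them, Psma5, Psmb7 and Psmd1 had libraries that did not overlap between groups. Psmb7 shares up to 253 bases of an exon with Nek6, and Psmd1 up to 252 with Htr2b. Promoters came from RefSeq (GRCm38.p6, matched by symbol for 29 of 36 members). Named members are the catalytic subunits, Psmd14, the highest and lowest level and the 2 smallest p of each kind, and members without overlap; pathway genes are the 2 smallest p of each list. A pathway gene that this rule names is not reported here. Other members are given by their differences. The members and lists were chosen with earlier results of these data known. Figures were drawn with matplotlib 3.10.9.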

Additional observations from a re-analysis of the deposited data

How the results depend on the processing

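Over 17 alternatives, 15 planned and 2 chosen after seeing the data (length correction, and leaving out wild type replicate 2 with Ucn3 null replicate 1), 0 members and 0 pathway genes passed, and Ucn3 kept its call. The number of all genes past the threshold, 2, was 4 without a filter, 1 with a filter at 5 RPKM, 1 with the acinar covariate, 1 after length correction and between 1 and 5 with 1 library left out; the cause was not tested. The members' median of -0.149 was -0.017 with the acinar covariate and between -0.195 and -0.103 with 1 library left out. The 7 members with an unadjusted limma p under 0.05 became 1 with the acinar covariate and 2 with median-ratio scaling. They were 2 with equal totals after leaving out the acinar markers, 2 after length correction and 5 with upper-quartile scaling. Their number was 2 without wild type replicate 2 and 19 without wild type replicate 1. Of all genes, 13.2% were lower without overlap as reported, 5.58% with equal totals after leaving out the acinar markers and 7.47% after length correction. Beside these shares, the 12 members without overlap became 6 with those equal totals and 6 after length correction. With 1 library left out they numbered between 12 and 27, the most being 27 without wild type replicate 1 and 25 without Ucn3 null replicate 3; fewer libraries make overlap rarer, and 23.6% and 26.2% of all genes were then lower without overlap. Among named genes, 22 of 560 values changed sign, none of them called. With the acinar covariate these were Psma7 (0.019), Psmb4 (0.041), Psmb5 (0.118), Psmc3 (0.004), Psmc5 (0.092) and Psmd14 (0.031). With median-ratio scaling, upper-quartile scaling and equal totals Psmd9 was at 0.030, 0.021 and 0.056 and Psmb10 at 0.027, 0.017 and 0.055, and Psmd14 was at 0.028 with equal totals. After length correction Psmd14 was at 0.039, Psmd9 at 0.040 and Psmb10 at 0.078. Without wild type replicate 2 and Ucn3 null replicate 1, Psmb5 was at 0.008 and Psmd9 at 0.017. With 1 library left out Psmd9 ranged from -0.083 to 0.061, Psmb10 from -0.067 to 0.046 and Psmb5 from -0.250 to -0.040. Leaving out 1 library moved 14 of 33 named genes by over 1.5 times. Without wild type replicate 2 these included Psmb4 (-0.098), Psmb6 (-0.147), Psmd1 (-0.065) and Psmd8 (-0.075), without Ucn3 null replicate 1 Psma7 (-0.126), Psmb8 (-0.147) and Psmd14 (-0.010), and without wild type replicate 1 Psmd13 (-0.085). No paired analysis was possible because the labels give no replicate numbers and tie no null animal to a wild-type animal. With SEs of 0.06 to 0.11 on the log2 scale, differences of the size seen in most members could not be separated from the spread between 3 animals per group.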
